A study of Drosophila melanogaster with 34 samples.

Results

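Nuclear RNA of mushroom body (MB) neurons was compared between flies taken 15 min and flies taken 10 min after the end of a 5 min optogenetic activation. The members are the 6 nuclear RNA-seq libraries of these groups, 3 per group, out of 15 RNA-seq libraries and 34 samples in the series, and the 11670 genes of the 17559 listed that passed a filter on low counts. Per the study's methods, flies fed retinal carried the red light-gated cation channel CsChrimson and FLAG-KASH, a tag on the outer nuclear membrane, in the MB under the *MBp-LexA* driver. Nuclei were pulled by the tag from fixed homogenates of many heads, so that nuclei or RNA of other head cells can be carried along. The labels give the line as CS10, and both groups received the same light, so that only the length of the rest differs. Naïve flies without light, flies at the end of the light and flies at 5 min of rest, with 3 libraries each, place the levels in time. Each time point is a separate pool of flies, so that no fly was followed from 10 to 15 min. The sources used here do not say when each pool was prepared, so that preparation and time cannot be told apart. Age and sex of these flies were not given in the sources used here.

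The MB is the center of olfactory memory in the fly brain, and its intrinsic neurons answer depolarization with a wave of transcription in which immediate early genes come first. How soon that wave ends is the question that a rest series addresses. Nuclear RNA reports recent synthesis and export more closely than whole-cell RNA. In this preparation, poly(A) RNA was collected after the crosslinks were reversed, and values here are counts on exons. The unit throughout is the normalized CPM, the counts of a gene relative to the total of its library after TMM scaling. A gene was called when its Benjamini-Hochberg adjusted p was under 0.05 in edgeR's quasi-likelihood test, adjusted over all 11670 genes. Fold changes are given as the level at 15 min relative to the level at 10 min.

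Between 10 and 15 min of rest, 1978 genes were called, 16.9% of those tested. Of these, 783 were higher (6.71%) and 1195 were lower (10.2%) at 15 min. Most changes were small: 112 genes rose by a log2 fold change of at least 1 (0.96% of tested genes), 80 by at least 2 (0.686%), 235 fell by at least 1 (2.01%) and 84 by at least 2 (0.72%). All 3 libraries of one group lay on one side of the other group for 4267 genes (36.6%), 2145 upwards (18.4%) and 2122 downwards (18.2%). Among called genes, 760 of the higher and 1176 of the lower ones did not overlap between groups. The median log2 fold change of all tested genes was 0.03. The strong rises came from low levels, with a median of 0.123 CPM at 10 min and 2.21 CPM at 15 min for the genes that rose by at least 1, and 24 of these genes had 0 counts in all 3 libraries at 10 min. The strong falls started higher, with a median of 19.4 CPM at 10 min and 2.31 CPM at 15 min for the genes that fell by at least 2. The share of higher genes among calls was 39.6% and depended on the scaling, with 47.1% under library size alone and 48.9% under upper quartile scaling. Leaving out replicate 1 or 2 at 10 min or replicate 2 at 15 min lowered the count of higher genes to 470, 465 and 502.

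**Figure D1:**
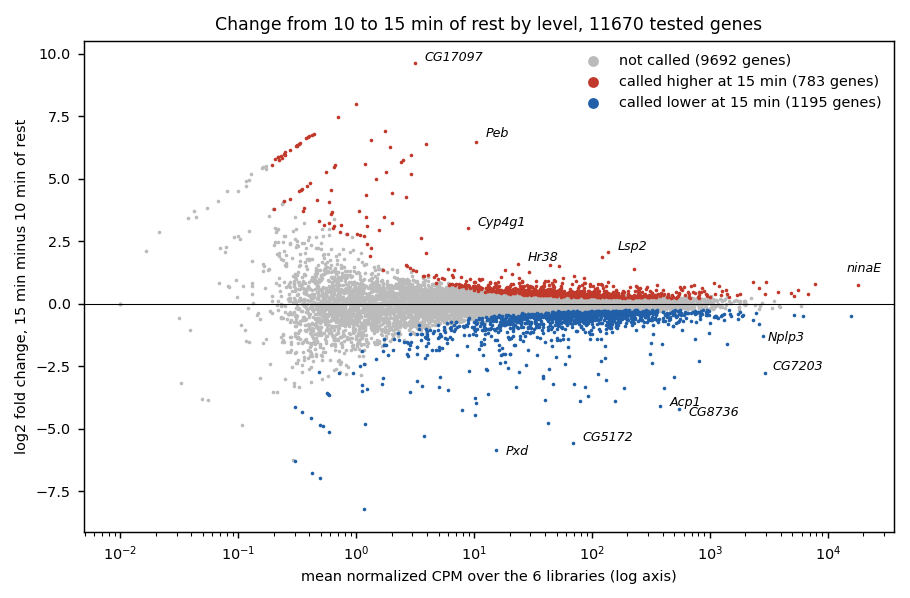
Each point is 1 of 11670 tested genes, with its mean level over the 6 libraries in normalized CPM (log axis) against its log2 fold change from 10 to 15 min of rest. Red points are the 783 genes called higher, blue points the 1195 called lower and grey points were not called. Strong rises lie mostly at low levels and strong falls also lie at high levels.

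The total counts were 15068766 to 18515185 per library at 10 min and 10392334 to 15924046 at 15 min. The 10 most abundant genes took 7.31% to 7.42% of the counts at 10 min and 8.04% to 8.83% at 15 min. Within groups, libraries differed beyond sampling noise (chi-square per degree of freedom from 4.94 to 14.5), so each library was 1 replicate. Of the labelled tissue, a list of 30 MB neuron genes had a summed level of 11123 to 12326 CPM at 10 min and 10258 to 12285 CPM at 15 min. Genes of other head cells were also abundant, and their markers passed the filter as well. A list of 35 photoreceptor genes summed to 41702 to 42332 CPM at 10 min and to 54740 to 63320 CPM at 15 min, and a list of fat body and yolk genes to 19738 to 20351 CPM and 26412 to 27761 CPM. In libraries of purified nuclei of this kind, a change in the number of nuclei of a cell type and a change in RNA per nucleus cannot be told apart.

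Genes of the cuticle were among the largest falls. Insect cuticle is laid down outside the epidermis from chitin, which the synthase *kkv* makes, and from families of structural proteins that bind it, such as the Cpr proteins. *Pxd* (a peroxidase gene, FBgn0004577, chromosome 3R from 17014576 to 17027987 of dm6) had 29.6, 30.9 and 29.7 CPM in the 10 min libraries and 0.594, 0.782 and 0.253 CPM in the 15 min libraries. Its fall was the largest among called genes without overlap between groups and with at least 5 CPM in the higher group. It fell 56.9-fold, a log2 change of −5.83 ± 0.27 (SE, adjusted p = 5.2e-16 in edgeR's test). *Acp1*, which encodes an adult cuticle protein (FBgn0014454, chromosome 2L from 7740562 to 7741537), had 688, 772 and 683 CPM at 10 min and 46.3, 48.8 and 31.8 CPM at 15 min. The groups were far apart, with a log2 change of −4.08 ± 0.14 (SE, adjusted p = 2.32e-19 in edgeR's test). *CG16884* (current symbol Vajk3, chromosome 2L from 13944756 to 13947476) had 281, 305 and 293 CPM at 10 min and 22.5, 17.8 and 19.6 CPM at 15 min, a log2 change of −3.88 ± 0.11 (SE, adjusted p = 7.79e-21 in edgeR's test). All 3 genes had been above naïve flies at 10 min. *Pxd* had 5.64 ± 0.702 CPM in naïve flies, 9.50 ± 1.81 at the end of the light, 18.9 ± 1.69 at 5 min of rest, 30.1 ± 0.737 at 10 min and 0.543 ± 0.268 at 15 min (SD, n = 3 each). At 10 min it was above naïve flies (log2 fold change 2.41, adjusted p = 1.23e-10 in edgeR's test) and at 15 min below them (−3.42, adjusted p = 8.82e-10 in edgeR's test).

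The 12 genes with the largest falls, among called genes without overlap and with at least 5 CPM in the higher group, spanned log2 fold changes from −5.83 to −3.86. Beside *Pxd*, *Acp1* and *CG16884* they were *CG5172*, *Cpr49Ac*, *CG13043*, *CR45890*, *CG31904*, *CG8736*, *CG12998*, *CG13722* and *CG8483*. *CG5172* had 139, 145 and 123 CPM at 10 min and 1.39, 3.44 and 3.41 CPM at 15 min, a log2 fold change of −5.56. *CG8736* was the most abundant of them at 10 min with 1031 ± 39.5 CPM and had 56.4 ± 13.99 CPM at 15 min (SD, n = 3 each). *CR45890* (current symbol asRNA:CR45890, chromosome 3L from 16302544 to 16303531) overlaps *CG13044*, and the strand setting of the counts is not given in the sources used here, so that reads of the pair cannot be told apart. The call of each of these 12 genes held with each of the 6 libraries left out. *kkv*, named here after its values were seen, fell from 172 ± 9.45 to 13.5 ± 2.60 CPM (SD, n = 3 each), a log2 change of −3.68 ± 0.14 (SE, adjusted p = 1.06e-17 in edgeR's test). The chitin deacetylase genes *verm* and *serp*, also named after their values were seen, had log2 fold changes of −2.26 and −2.36.

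Of 125 cuticle protein genes listed, 65 were tested, 23 were lower, 1 was higher and 41 were not called at 15 min. That is 35.4% lower, where 10.2% of all tested genes were lower, and the median log2 fold change was −0.78, where that of all tested genes was 0.03. The list held 9 of the 84 genes that fell by at least 2. *Cpr97Ea* had 159.5, 155 and 156 CPM at 10 min and 19.8, 14.3 and 14.03 CPM at 15 min. *Cpr62Bc* had 217, 254 and 225 CPM and 32.6, 30.5 and 22.4 CPM at these times. *Cpr100A*, the most abundant of the 4 with the smallest adjusted p, had 859, 939 and 828 CPM and 128, 121 and 99.0 CPM. The 15 min libraries of each of these genes lay below all 10 min libraries. *Ccp84Ab* had 128, 128 and 126 CPM at 10 min and 19.99, 12.5 and 9.61 CPM at 15 min. The log2 fold changes of the 4 were −3.30, −3.04, −2.92 and −3.21. The 1 member called higher, *Cpr30B*, was scarce, with 0.0811 ± 0.0271 CPM at 10 min and 0.882 ± 0.498 CPM at 15 min, and was called in only 1 of the 6 fits that left out a library. The summed level of the list was 3766 to 3914 CPM at 10 min and 1501 to 1675 CPM at 15 min, and 20 listed genes had 0 counts in all 6 libraries. Against naïve flies, 22 members were higher and 2 lower at 10 min, where 14.5% and 13.9% of all tested genes were. At 15 min 2 were higher and 17 lower, where 5.41% and 4.24% of all tested genes were. Tanning of new cuticle uses products of *ple* (tyrosine hydroxylase) and *e* (an enzyme that joins beta-alanine to dopamine), both also known from neurons or glia. *ple* fell from 455 ± 15.8 to 197 ± 22.7 CPM (log2 fold change −1.21, adjusted p = 5.28e-10 in edgeR's test) and *e* from 159 ± 8.27 to 74.8 ± 8.95 CPM (log2 fold change −1.09, adjusted p = 5.88e-09 in edgeR's test; SD, n = 3 each).

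The sequence before the start of these genes was read from the genome because several of them share a core promoter element. A TATA box lies some bases before the start of many inducible or tissue-restricted genes of the fly. The 100 bases before the annotated gene start are shown for 5 genes that fell, from the RefSeq copy of the dm6 assembly with gene positions from Ensembl, and capitals mark TATAAA.
Pxd, chr3R:17014476-17014575, forward strand: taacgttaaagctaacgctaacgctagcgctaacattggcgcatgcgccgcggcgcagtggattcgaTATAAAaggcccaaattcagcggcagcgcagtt
Acp1, chr2L:7741538-7741637, reverse strand: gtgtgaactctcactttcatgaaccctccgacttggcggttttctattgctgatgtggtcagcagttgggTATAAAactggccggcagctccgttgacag
CG16884, chr2L:13947477-13947576, reverse strand: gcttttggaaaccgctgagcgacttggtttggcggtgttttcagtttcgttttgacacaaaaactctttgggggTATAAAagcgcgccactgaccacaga
Cpr100A, chr3R:30867421-30867520, forward strand: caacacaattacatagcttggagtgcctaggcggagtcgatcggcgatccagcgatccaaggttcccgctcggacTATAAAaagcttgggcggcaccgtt
Ccp84Ab, chr3R:6702878-6702977, reverse strand: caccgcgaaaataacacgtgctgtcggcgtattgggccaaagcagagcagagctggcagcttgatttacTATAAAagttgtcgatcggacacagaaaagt
The first base of TATAAA lay 33, 30, 26, 25 and 31 bases before the start. No exon of any annotated gene overlapped these windows. TATAAA, searched on both strands, was present in 1960 of the 11459 windows of tested genes with a position (17.1%). It was present in 41 of 84 windows of genes that fell by at least 2 (48.8%), in 44 of 65 windows of the cuticle protein genes (67.7%) and in 48 of 112 windows of genes that rose by at least 1 (42.9%). Over all called genes the shares were 20.8% for higher and 18.9% for lower genes. On the strand of the gene and with its first base 40 to 20 bases before the start, the element was present in 5.85% of all windows, 9.70% of the higher genes, 10.9% of the lower genes, 38.1% of the genes that fell by at least 2 and 26.8% of those that rose by at least 1. GAGAG, on both strands, was present in 14.3% of all windows, 24.5% of the lower genes and 12.8% of the higher genes. It was present in 17.9% of the genes that fell by at least 2, 7.69% of the cuticle protein genes and 47.1% of the inducible heat shock genes. These matches are descriptions of letters in a window, not of sites in use.

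Many of the tested photoreceptor genes were higher at 15 min. Photoreceptors detect light with opsins, pass the signal through a Gq protein and phospholipase C (*norpA*) to TRP channels, and end it with arrestins. Of 34 tested photoreceptor genes, 19 were higher (55.9%, background 6.71%), 4 lower (11.8%, background 10.2%) and 11 not called at 15 min, with a median log2 fold change of 0.39. *ninaE* (opsin Rh1, FBgn0002940, chromosome 3R from 19886255 to 19888206) was the most abundant called gene among those higher and had 13142, 13650.0 and 12928 CPM at 10 min and 24248, 23057 and 20278 CPM at 15 min. All 15 min libraries lay above all 10 min libraries, with a log2 change of 0.77 ± 0.09 (SE, adjusted p = 4.21e-07 in edgeR's test). *Arr1* (arrestin, chromosome 2L from 18078269 to 18081307) had 2049, 2086 and 2235 CPM at 10 min and 4086, 4109 and 3453 CPM at 15 min, a log2 change of 0.87 ± 0.09 (SE, adjusted p = 1.09e-08 in edgeR's test). *Arr2*, the major arrestin, had 5713, 5786 and 5683 CPM and 10870.3, 9935 and 8719 CPM at these times, a log2 fold change of 0.78. The opsin genes of the other eye cells rose as well. *Rh3* had 458, 463 and 466 CPM at 10 min and 784, 759 and 686 CPM at 15 min, and *Rh5* had 177, 190.2 and 191 CPM and 309, 294 and 299 CPM. Log2 fold changes were 0.70 for *Rh2*, an opsin of the ocelli, 0.68 for *Rh3*, 0.67 for *Rh4*, 0.69 for *Rh5* and 0.72 for *Rh6*, with standard errors between 0.08 and 0.10. Further along the cascade, *norpA*, *trpl* and *trp* were higher by 0.39, 0.46 and 0.39, and the scaffold gene *inaD* by 0.76. The 4 members that fell were *santa-maria* (−0.60), *laza* (−0.59), *retinin* (−0.46) and *Cry* (current symbol Crys, −0.40), of which *retinin* and *Cry* encode proteins of the corneal lens. *retinin* had 5752, 5869 and 6195 CPM at 10 min and 4154, 4486 and 4313 CPM at 15 min. The count of 19 higher members was 18 or 19 with each library left out, and 19 under each of the other scalings. Against naïve flies, 6 members were higher (background 14.5%) and 13 lower (13.9%) at 10 min. At 15 min 12 were higher (background 5.41%) and 5 lower (4.24%). *ninaE* was not called against naïve flies at 10 min (log2 fold change −0.10) and was above them at 15 min (0.67, adjusted p = 5.61e-06 in edgeR's test), whereas *Rh3* was below them at 10 min (−0.64) and not called at 15 min (0.04).

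The same stretch before the start is shown for 3 photoreceptor genes and for *Cyp4g1*, which is described with the other rises, because they hold TATAAA as well, and because *ninaE* and *Arr1* share a further 12 bases. Capitals mark TATAAA and CTAATTGAATTT.
ninaE, chr3R:19888207-19888306, reverse strand: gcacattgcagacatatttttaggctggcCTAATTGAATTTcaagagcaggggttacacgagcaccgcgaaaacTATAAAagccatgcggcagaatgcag
Arr1, chr2L:18078169-18078268, forward strand: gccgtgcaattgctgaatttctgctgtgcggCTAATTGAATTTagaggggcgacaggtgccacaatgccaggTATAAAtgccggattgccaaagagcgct
Rh3, chr3R:20082451-20082550, reverse strand: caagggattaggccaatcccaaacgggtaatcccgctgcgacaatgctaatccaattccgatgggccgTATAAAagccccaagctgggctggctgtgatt
Cyp4g1, chrX:469336-469435, reverse strand: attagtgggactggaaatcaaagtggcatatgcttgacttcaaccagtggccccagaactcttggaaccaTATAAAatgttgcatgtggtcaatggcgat
CTAATTGAATTT, the longest run of letters common to the windows of *ninaE* and *Arr1*, began 71 bases before the start in *ninaE* and 69 bases before it in *Arr1*. It resembles the Rhodopsin conserved sequence I known from opsin promoters. Searched on both strands, it was present in 2 of the 11459 windows (0.0175%), those from which it was taken. TATAAA, on both strands, was present in 9 of 34 windows of the photoreceptor genes (26.5%) and in 17.1% of all windows. On the strand of the gene and 40 to 20 bases before the start, the shares were 20.6% and 5.85%.

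Genes of the male reproductive tract, which lies outside the head, were among the largest rises. Seminal fluid proteins are made in the accessory glands and the ejaculatory bulb. *Peb* (ejaculatory bulb protein, current symbol Ebp, chromosome 2R from 25175126 to 25176715) had 0, 0.276 and 0.436 CPM at 10 min and 18.7, 25.1 and 18.3 CPM at 15 min, a log2 change of 6.46 ± 0.31 (SE, adjusted p = 9.02e-16 in edgeR's test). From 11 counts at 10 min, this value was 5.81 without replicate 1 at 10 min and 7.29 without replicate 3 at 10 min. *PebII* (current symbol EbpII) had 0.112, 0.0690 and 0.0623 CPM and 10.1, 8.52 and 4.55 CPM, from 4 counts in all at 10 min and 283 at 15 min. *Acp36DE*, an accessory gland gene, also had 4 counts at 10 min, and 210 at 15 min, and its log2 fold change of 5.97 became 5.35 without replicate 1 and 7.19 without replicate 3 at 10 min. *CG17097* had 0 counts at 10 min in all 3 libraries and 9.11, 8.21 and 1.71 CPM at 15 min, at least 93.3-fold higher against a floor of 3 counts over the group. Naïve flies had more of *Peb* than either group, with 114 ± 8.32 CPM (SD, n = 3), and flies taken after 5 min of rest had 0.198 ± 0.123 CPM. Of 43 listed genes of the male tract, 30 were tested, 12 were higher (background 6.71%), 2 lower (6.67%, background 10.2%) and 16 not called. The median log2 fold change was 2.85, or 2.28 with the 6 members that had 0 counts at 10 min at their bound. One member of these, *Acp54A1*, had 0 counts at 15 min as well. All 12 higher members had a fitted log2 fold change of at least 2. The filter on low counts passes such a gene through the groups in which it is present. With 10 counts required in every library, none of the list was called higher. The 2 lower members were *PebIII* (current symbol EbpIII), at 7209.7 ± 121 CPM at 10 min and 5199 ± 798 CPM at 15 min (log2 fold change −0.47), and *Dup99B*. *PebIII* made up most of the list's counts, and the summed level of the list was lower at 15 min, from 4553 to 6148 CPM against 7271 to 7486 CPM at 10 min. Against naïve flies, 20 members were lower at 10 min (background 13.9%) and 14 at 15 min (background 4.24%).

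Single genes of digestive enzymes were also among the largest rises, with no list of such genes counted. *betaTry*, a trypsin gene, had 0, 0.483 and 0 CPM at 10 min and 6.73, 5.16 and 5.12 CPM at 15 min, a log2 change of 5.19 ± 0.61 (SE, adjusted p = 2.82e-07 in edgeR's test). Its 7 counts at 10 min all came from replicate 2, so that this value rests on that library. *CG12374* had 0.0561, 0.345 and 0.374 CPM and 5.64, 3.05 and 6.38 CPM. All libraries at 15 min were above those at 10 min for both genes. Further genes of digestion, named after their values were seen, were the protease genes *alphaTry*, *Jon65Aiv* and *yip7* and the amylase gene *Amy-d*, which rose by 5.69, 2.97, 3.47 and 1.27. In naïve flies these genes were at 14.2, 8.61, 9.67 and 30.9 CPM, and at 15 min *alphaTry* and *yip7* were still called lower than in naïve flies. *CG34324* completes the 12 largest rises among called genes without overlap and with at least 5 CPM in the higher group. It went from 0.948 ± 0.644 to 6.14 ± 1.16 CPM (SD, n = 3 each), and its log2 change of 2.64 became 3.29 without replicate 1 at 10 min. The part of tissue from outside the head in these changes was not tested.

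Fat body and yolk genes were also higher at 15 min. The fat body is the store and secretory organ of the fly, with lobes in the head, and makes yolk proteins in females. *Lsp2* (larval serum protein, FBgn0002565, chromosome 3L from 12129393 to 12131869) had 51.0, 52.3 and 55.5 CPM at 10 min and 225, 224 and 216 CPM at 15 min, with narrow spread in both groups and a log2 change of 2.07 ± 0.10 (SE, adjusted p = 5.85e-16 in edgeR's test). *CR11538* (current symbol asRNA:CR11538) overlaps *Lsp2* and rose by 1.86, and reads of the pair cannot be told apart. *Lsp1beta* rose from 10.3 ± 1.39 to 26.3 ± 1.63 CPM and *Rfabg* (current symbol apolpp), which encodes the main lipoprotein, from 2038 ± 56.8 to 3145 ± 207 CPM (SD, n = 3 each). The yolk protein gene *Yp3* had 4426, 4562 and 4542 CPM at 10 min and 6687, 6872 and 6315 CPM at 15 min (log2 fold change 0.55), and *Yp1* and *Yp2* rose by 0.41 and 0.47. *CR45601* (current symbol asRNA:CR45601) overlaps *Yp1* and rose by 0.43. Of 25 tested genes of the list, 13 were higher (52.0%, background 6.71%), 4 lower (16.0%, background 10.2%) and 8 not called, with a median log2 fold change of 0.41. The lower members were *Adh*, *CG8317*, *bmm* and *Cyp6a2*. Against naïve flies, 7 members were higher (background 14.5%) and 6 lower (13.9%) at 10 min. At 15 min 13 were higher (background 5.41%) and 0 lower (4.24%). *Lsp2* was below naïve flies at 10 min (log2 fold change −0.68) and above them at 15 min (1.38).

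Genes of oenocytes, the cells that make cuticular hydrocarbons, moved in both directions. *Cyp4g1*, the decarbonylase of hydrocarbon synthesis (chromosome X from 467057 to 469335), had 1.29, 1.93 and 2.55 CPM at 10 min and 14.8, 19.5 and 12.9 CPM at 15 min, a log2 change of 3.03 ± 0.26 (SE, adjusted p = 3.77e-10 in edgeR's test). Its level at 15 min lay between that at 10 min and that of naïve flies (42.6 ± 2.92 CPM; SD, n = 3). *v(2)k05816* (current symbol FASN2), a fatty acid synthase gene of oenocytes, had 2.19, 1.86 and 0.498 CPM and 4.85, 6.88 and 6.95 CPM (log2 fold change 2.03), and *ACC*, which encodes acetyl-CoA carboxylase, rose by 0.54. The elongase genes *CG5326* and *bond* fell by 0.65 and 0.75. Of 14 tested members, 5 were higher (35.7%, background 6.71%) and 3 lower (21.4%, background 10.2%), and without replicate 1 or without replicate 2 at 10 min 3 were higher.

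**Figure D2:**
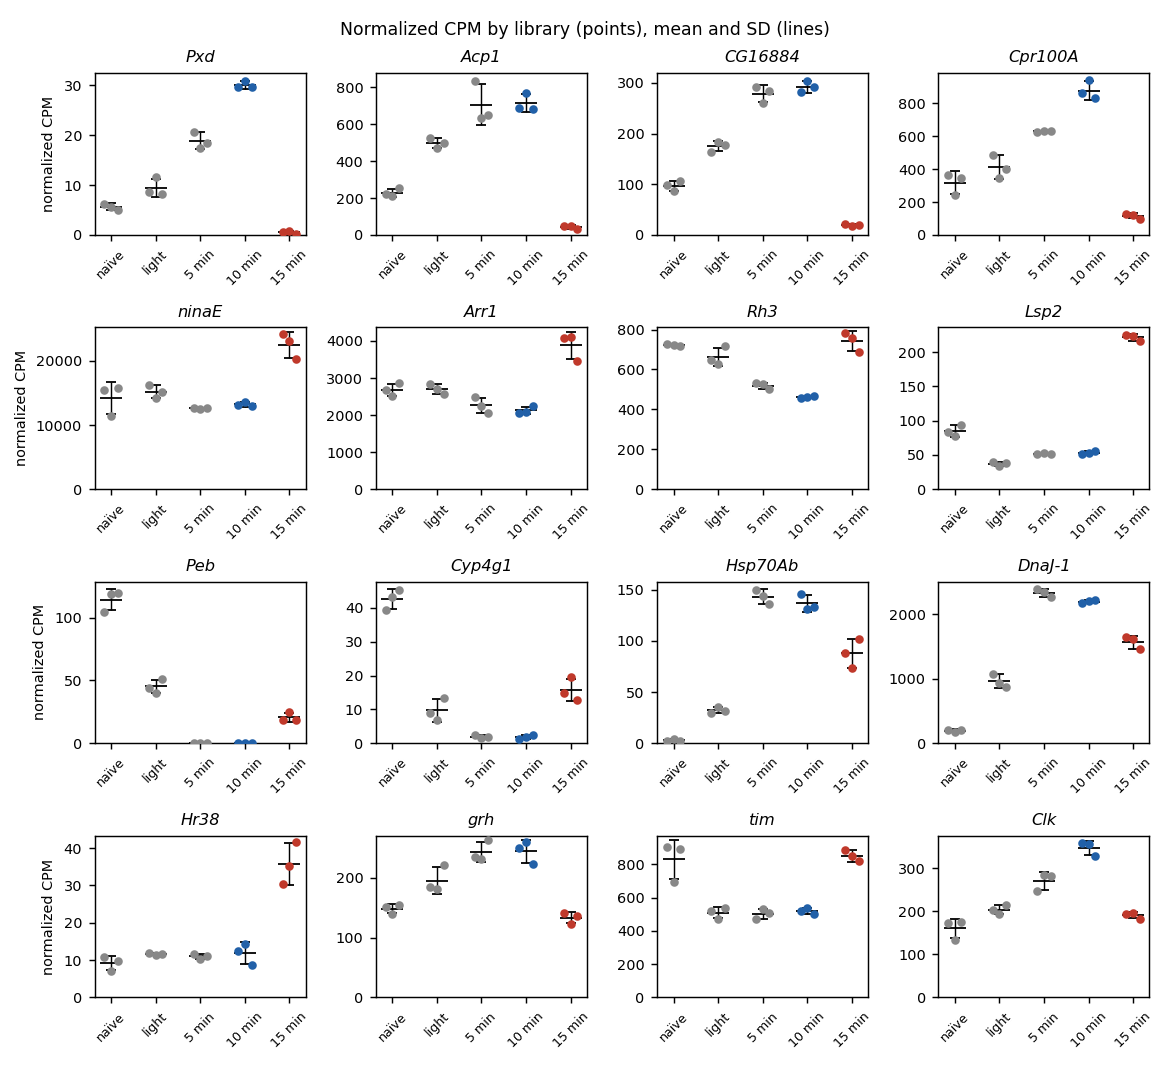
Normalized CPM of 16 genes in each of the 15 RNA-seq libraries (points, with blue at 10 min, red at 15 min and grey for the other groups), with the mean and SD of 3 libraries as lines. Axes start at 0. The 4 genes of the upper row are above naïve flies up to 10 min and below them at 15 min, while *Peb* and *Cyp4g1* are near 0 at 5 and 10 min and *Hr38* is high only at 15 min.

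Most inducible heat shock genes were lower at 15 min. These genes are switched on by Hsf when proteins unfold, and the Hsp70 copies and the small Hsp genes respond most. Of 17 tested inducible heat shock genes, 12 were lower (70.6%, background 10.2%), 0 higher and 5 not called at 15 min, with a median log2 fold change of −0.40. *DnaJ-1*, a co-chaperone gene, had 2172, 2207 and 2220.4 CPM at 10 min and 1644, 1616 and 1457 CPM at 15 min, a log2 change of −0.48 ± 0.09 (SE, adjusted p = 0.000142 in edgeR's test). *Hsp70Ab* had 146, 131 and 134 CPM at 10 min and 87.8, 73.9 and 102 CPM at 15 min (log2 fold change −0.64). The value of a single Hsp70 copy is uncertain, because near-identical copies share reads. The non-coding *Hsromega* (current symbol lncRNA:Hsromega) had 2164, 2197 and 2208 CPM and 1639.8, 1600.2 and 1569 CPM at these times. All 3 were still above naïve flies at 15 min: *Hsp70Ab* by a log2 fold change of 4.85, *DnaJ-1* by 2.99 and *Hsromega* by 1.496. Each of the 17 tested members exceeded its naïve level at both times (background 14.5% at 10 min and 5.41% at 15 min). Among 25 tested constitutive chaperone genes, 22 were not called. The 2 lower ones (8%, background 10.2%) were *Hsc70Cb* (current symbol Hsp110) and *mrj*, and the 1 higher (4%, background 6.71%) was *Trap1*. Against naïve flies, 17 of the 25 were higher (background 14.5%) and 3 lower (13.9%) at 10 min. At 15 min 17 were higher (background 5.41%) and 0 lower (4.24%).

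Activity-regulated genes moved in both directions. *Hr38*, the fly member of the NR4A family of nuclear receptors and a late marker of neuronal activity (FBgn0014859, chromosome 2L from 20683462 to 20714588), had 12.6, 14.4 and 8.59 CPM at 10 min and 30.4, 35.2 and 41.6 CPM at 15 min. It rose 3.03-fold, a log2 change of 1.60 ± 0.18 (SE, adjusted p = 1.9e-07 in edgeR's test). *sr*, an Egr family transcription factor gene, had 19.4, 18.0 and 16.4 CPM at 10 min and 34.6, 31.6 and 32.1 CPM at 15 min, a log2 change of 0.87 ± 0.15 (SE, adjusted p = 7.85e-05 in edgeR's test). At 15 min both exceeded their naïve levels, by 1.95 and 1.505. Other genes that were above naïve flies at 10 min fell. *grh* (a grainyhead family gene) had 250.2, 259 and 223 CPM at 10 min and 141, 123 and 136 CPM at 15 min, a log2 change of −0.87 ± 0.10 (SE, adjusted p = 8.05e-08 in edgeR's test). *h* (a Hes family repressor gene, current symbol hry) had 248, 239 and 251 CPM and 189, 185 and 174 CPM, a log2 fold change of −0.43. *Myo31DF*, an unconventional myosin gene, had 54.9, 65.4 and 60.8 CPM and 41.5, 45.8 and 46.5 CPM, a log2 fold change of −0.44. At 15 min, *h* was still above naïve flies (0.71, adjusted p = 2.28e-06 in edgeR's test), while *grh* and *Myo31DF* were not called against them (−0.15 and −0.03). *kay*, the fly Fos gene, had 148, 151 and 135 CPM at 10 min and 117, 102 and 132 CPM at 15 min, and its log2 fold change of −0.30 did not pass the threshold (SE 0.11, adjusted p = 0.0623 in edgeR's test). It passed in 3 of 8 alternative fits and in 1 of the 6 that left out a library. *cbt*, another early transcription factor gene, had 273 ± 17.0 CPM at 10 min and 295 ± 17.1 CPM at 15 min and was not called. Over the list of 21 activity-regulated genes, which includes genes chosen for their course in these libraries, 5 were higher (23.8%, background 6.71%), 4 lower (background 10.2%) and 12 not called, with a median log2 fold change of 0.00. The other higher members were *vri*, *CG14186* and *CG11221* and the other lower member was *Eip74EF*.

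*CoRest*, *Rpd3* and *nej*, the genes of the co-repressor, the deacetylase and CBP, were not called. *CoRest* had 91.3, 92.5 and 100.1 CPM at 10 min and 93.1, 91.8 and 77.6 CPM at 15 min. *Rpd3* (current symbol HDAC1) had 16.7, 22.0 and 17.9 CPM and 26.1, 29.5 and 19.9 CPM, and its log2 fold change of 0.42 missed the threshold (adjusted p = 0.0629 in edgeR's test) but passed it under library size alone, under upper quartile scaling and without replicate 2 at 10 min or replicate 3 at 15 min. *nej* had 237, 207 and 192 CPM and 164, 152 and 228 CPM. A list of genes of their complexes, which also held other deacetylase genes, had 17 tested members. Of these, 2 were lower (11.8%, background 10.2%), *ttk* (−0.46) and the deacetylase gene *HDAC4* (−0.35), and 0 higher. Of these genes, 1 was lower without replicate 2 at 10 min or replicate 2 at 15 min, and 4 without replicate 3 at 15 min. In the AP-1, JNK and MAPK list of 28 genes, 7 were lower (25.0%, background 10.2%) and 1 higher (background 6.71%), and the examples with the smallest adjusted p were the Ets repressor gene *aop*, the receptor gene *CG10176* (current symbol grnd), the metalloprotease gene *Mmp1* and the kinase gene *msn*, with log2 fold changes of −0.79, −0.70, −0.43 and −0.42. Without replicate 2 at 10 min or replicate 2 at 15 min, 4 were lower.

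The list of 18 clock genes held 4 higher (22.2%, background 6.71%), 1 lower (5.56%, background 10.2%) and 13 not called at 15 min. Its median log2 fold change was 0.01. In the fly clock, Clk drives *per*, *tim* and *vri*, whose products in turn limit Clk. *tim* had 518, 539 and 503 CPM at 10 min and 888, 849 and 818 CPM at 15 min, a log2 change of 0.71 ± 0.09 (SE, adjusted p = 1.44e-06 in edgeR's test). *vri* had 84.5, 83.9 and 93.0 CPM and 149.8, 146 and 152 CPM, a log2 fold change of 0.78, and *per* rose by 0.52. *Pdf*, the neuropeptide gene of clock neurons, had 17.7, 25.1 and 26.1 CPM and 39.5, 50.5 and 41.4 CPM. *Clk* fell, with 358, 357 and 329 CPM at 10 min and 195, 196 and 183 CPM at 15 min, a log2 change of −0.86 ± 0.10 (SE, adjusted p = 9.62e-08 in edgeR's test). None of these 5 genes was called against naïve flies at 15 min, and all 5 were called at 10 min, *Clk* higher (1.12) and *tim*, *vri*, *per* and *Pdf* lower (−0.68, −0.58, −0.54 and −1.15). The other 13 of 18 genes of the list, such as *Pdp1* (0.13), *cwo* (−0.07) and *cyc* (−0.02), were not called between 10 and 15 min. Each of the 6 fits that left out a library gave 4 higher and 1 lower. The study's experiments were made in the light phase of the day, and the hour at which each pool was taken is not given in the sources used here.

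Most genes of MB neurons and of synapses were not called. Of 30 tested MB neuron genes, 4 were higher (13.3%, background 6.71%), 2 lower (6.67%, background 10.2%) and 24 not called, with a median log2 fold change of 0.05. *Eip93F*, an ecdysone-induced transcription factor gene, had 3025, 3012 and 2483 CPM at 10 min and 1921, 1505 and 2098 CPM at 15 min, a log2 change of −0.63 ± 0.11 (SE, adjusted p = 0.000147 in edgeR's test). The higher members were *jdp* (0.34), the dopamine and ecdysteroid receptor gene *DopEcR* (0.35), the vesicular transporter gene *prt* (0.40) and the dopamine receptor gene *Dop1R2* (0.37), and the other lower one was the Pax6 gene *toy* (−0.34). Without replicate 2 at 10 min or replicate 1 at 15 min, 2 were higher. Of 30 tested synapse genes, 3 were higher (10.0%, background 6.71%): *nSyb*, *comt* and *Cha* (current symbol ChAT). The 1 lower gene (3.33%, background 10.2%) was *ple*, and 26 were not called. *nSyb*, the neuronal synaptobrevin gene, had 876, 845 and 817 CPM at 10 min and 1052, 1049 and 1061 CPM at 15 min. Without replicate 3 at 10 min, 1 synapse gene was higher. Of 33 ion channel genes, 4 were higher (12.1%, background 6.71%) and 1 was lower (3.03%, background 10.2%). With any 1 library other than replicate 1 at 15 min left out, 1 channel gene was higher. Of 27 cAMP and calcium signaling genes, 1 was higher (3.70%, background 6.71%) and 4 were lower (14.8%, background 10.2%). Of the lower genes, 1 or 2 were called with any 1 library other than replicate 3 at 15 min left out. The higher one, the calcineurin subunit gene *CanB*, had 126, 124 and 124 CPM at 10 min and 179, 177 and 168 CPM at 15 min. Of 22 glia genes, 4 were lower (18.2%, background 10.2%) and 0 higher: *e*, *Indy* (−0.42), *CG16857* (current symbol bdl, −0.42) and *Gli* (−0.51).

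Many muscle genes were lower. Of 26 tested, 16 were lower (61.5%, background 10.2%), 0 higher and 10 not called, with a median log2 fold change of −0.40. The myosin light chain gene *Mlc2* had 344, 337 and 364 CPM at 10 min and 151, 189 and 227 CPM at 15 min, a log2 change of −0.88 ± 0.11 (SE, adjusted p = 8.52e-07 in edgeR's test). *Act57B* (a muscle actin gene) had 304, 299 and 344 CPM and 159, 218 and 225 CPM, and *Prm* (paramyosin) had 64.2, 64.0 and 72.6 CPM and 25.8, 36.1 and 45.6 CPM. In these genes the 15 min libraries spread more than the 10 min libraries, and without replicate 1 at 15 min 10 members were lower. The summed level of the list was 3489 to 3665 CPM at 10 min and 2300 to 2899 CPM at 15 min. Antimicrobial peptide genes, which NF-kB factors switch on after infection, were called lower for 7 of 21 (33.3%, background 10.2%) and higher for 2 (*PGRP-SD* and *Def*, background 6.71%). The Cecropin genes among them were scarce: *CecB* had 3.92, 2.97 and 2.18 CPM at 10 min and 0, 0.469 and 0.442 CPM at 15 min. Without replicate 1 at 10 min, 0 members were lower, and without replicate 3 at 10 min or replicate 1, 2 or 3 at 15 min there were 3, 3, 4 and 2. Of 14 hemocyte genes, *Hml* and *srp* were higher (14.3%, background 6.71%) and the collagen genes *vkg* and *Cg25C* (current symbol Col4a1) lower (14.3%, background 10.2%).

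Most genes of ribosomes and of oxidative phosphorylation were not called. Of 84 tested cytosolic ribosomal protein genes, 1 (*RpS2*) was higher (1.19%, background 6.71%) and 83 were not called. Their fitted log2 fold change was above 0 for 82, with a median of 0.18. Without a filter 7 of them were higher, and 17 in a fit of the 6 libraries alone. Of 72 mitochondrial ribosomal protein genes, 6 were higher (8.33%, background 6.71%) and 0 lower, with a median of 0.34. The count was between 1 and 9 with 1 library left out, 1 without replicate 2 at 15 min, 2 without replicate 2 at 10 min and 9 under library size alone. Of 75 oxidative phosphorylation genes, 6 were higher (8%, background 6.71%), such as *CG9140* (current symbol ND-51, 0.31), and 0 lower. The fitted log2 fold change was above 0 for 66 and below 0 for 9, with a median of 0.23. Against naïve flies, 49 were lower at 10 min (background 13.9%) and 0 at 15 min (4.24%). The count of higher members was 1, 0 and 2 without replicate 1, 2 or 3 at 10 min. It was 0, 1 and 9 without replicate 1, 2 or 3 at 15 min, and 27 in a fit of the 6 libraries alone. Of 40 proteasome genes, 2 were lower (5.0%, background 10.2%), *Prosalpha4T2* and *Rpt4R*, and 0 higher. With any 1 library left out, 1 proteasome gene was lower. The 15 listed genes of the mitochondrial genome had 0 counts in all 6 libraries and were not tested. Of 13 dosage compensation genes, 1 (*dsx*, −0.34) was lower (7.69%, background 10.2%). The calls of *HDAC4*, *DopEcR*, *prt*, *nSyb*, *Cha*, *Hsc70Cb*, *mrj*, *Trap1*, *Hml*, *srp*, *Cg25C*, *RpS2*, *CG9140*, *Rpt4R* and *dsx* held in 0 to 5 of the 6 fits that left out a library.

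**Figure D3:**
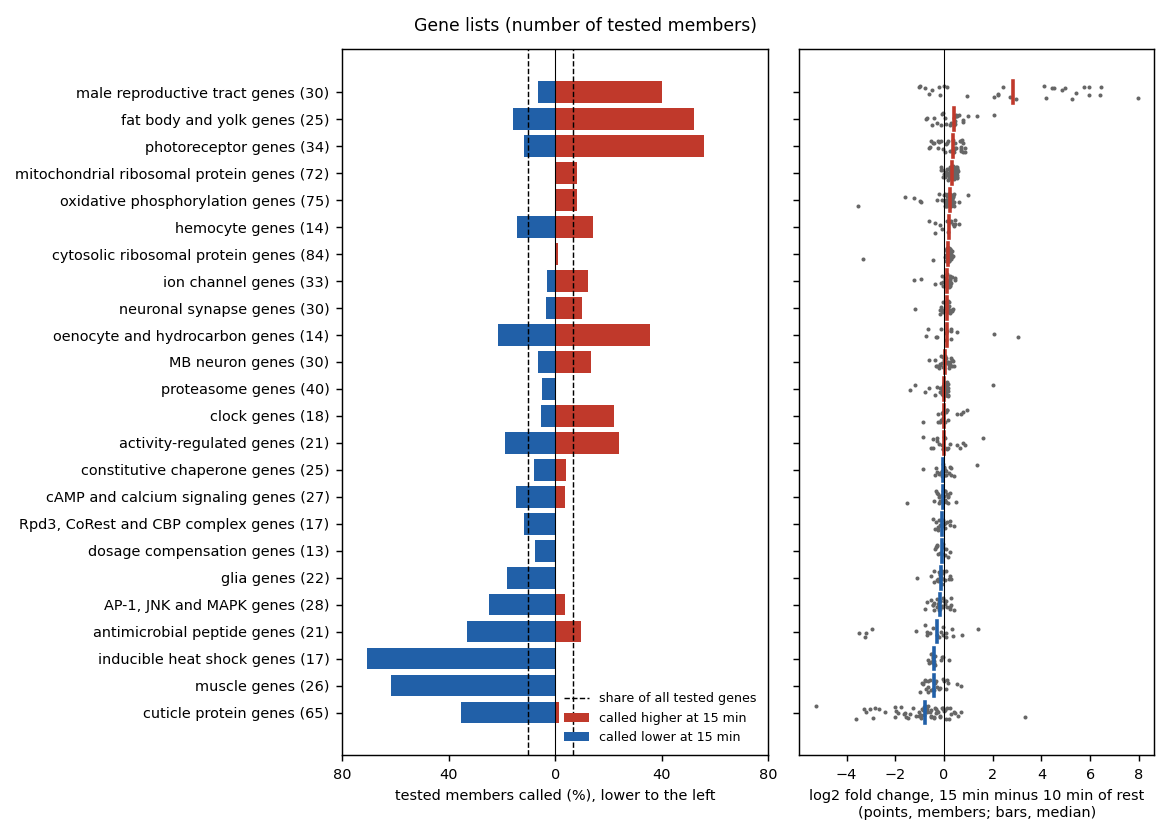
For 24 gene lists, with the number of tested members in parentheses, the left panel gives the percent of tested members called higher (red, to the right) or lower (blue, to the left) at 15 min, and dashed lines mark the shares of all tested genes, 6.71% and 10.2%. The right panel gives the log2 fold change of each member (points) and their median (bars). Photoreceptor, fat body and male tract lists lie to the right, and cuticle, muscle and heat shock lists to the left.

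By level, the 6 most abundant genes among those higher without overlap were *ninaE*, *Arr2*, *Yp1*, *Yp3*, *IA-2* and *CR45601*. *IA-2*, a gene of dense core vesicles, had 4680.2, 4507 and 4455 CPM at 10 min and 5708, 5226 and 6157 CPM at 15 min (log2 fold change 0.33). The 6 most abundant lower genes were *CR42862*, *PebIII*, *retinin*, *CG7203*, *Nplp3* and *Cyp313a1*. *CR42862* (current symbol lncRNA:CR42862, chromosome 3L from 224106 to 230964), which overlaps *CG33229*, had 18318, 18395 and 17933 CPM at 10 min and 13623, 13087 and 12519.6 CPM at 15 min. *CG7203* had 5014, 5290.0 and 5105 CPM and 894, 785 and 596 CPM (log2 fold change −2.76), and *Nplp3*, a neuropeptide-like precursor gene, had 3879, 4070.3 and 4051 CPM and 1578, 1644 and 1654 CPM (log2 fold change −1.30). Both were below naïve flies at 15 min, with log2 fold changes of −1.47 and −0.51. Genes that overlap others, such as *Pxd* with *AdSL*, *Acp36DE* with *Fas3* and *Cyp4g1* with *CG32816*, may share reads with them. *Cyp313a1*, a cytochrome P450 gene, had 3306, 3385 and 3239.8 CPM and 2083, 1849.9 and 1708 CPM and was at 1973 ± 200.4 CPM in naïve flies (SD, n = 3).

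The called genes were then placed on the time course. The comparisons of each group with naïve flies share the naïve libraries, and those at 10 and 15 min share libraries with the comparison that chose the genes, so that their values stand side by side as a description. Of all tested genes, 14.5% exceeded and 13.9% fell short of their naïve level at 10 min, and 5.41% and 4.24% did at 15 min. Of the 783 genes that rose from 10 to 15 min, 497 (63.5%) were lower than in naïve flies at 10 min and 14 (1.79%) higher. At 15 min 126 (16.1%) were higher and 37 (4.73%) lower, and 620 were not called. Of the 1195 genes that fell, 834 (69.8%) stood above naïve flies at 10 min and 4 below them. At 15 min 95 (7.95%) were higher and 245 (20.5%) lower, and 855 were not called. The median log2 fold change against naïve flies of the genes that fell was 0.18 at the end of the light, then 0.32, 0.50 and −0.12 at 5, 10 and 15 min of rest. That of the genes that rose was −0.14, −0.22, −0.41 and 0.07. Among the 84 genes that fell by at least 2, 64 were higher and 0 lower than in naïve flies at 10 min, and 0 were higher and 55 (65.5%) lower at 15 min, with medians of 1.46 and −1.60. The median of all tested genes stayed between −0.05 and −0.01 at the 4 times.

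**Figure D4:**
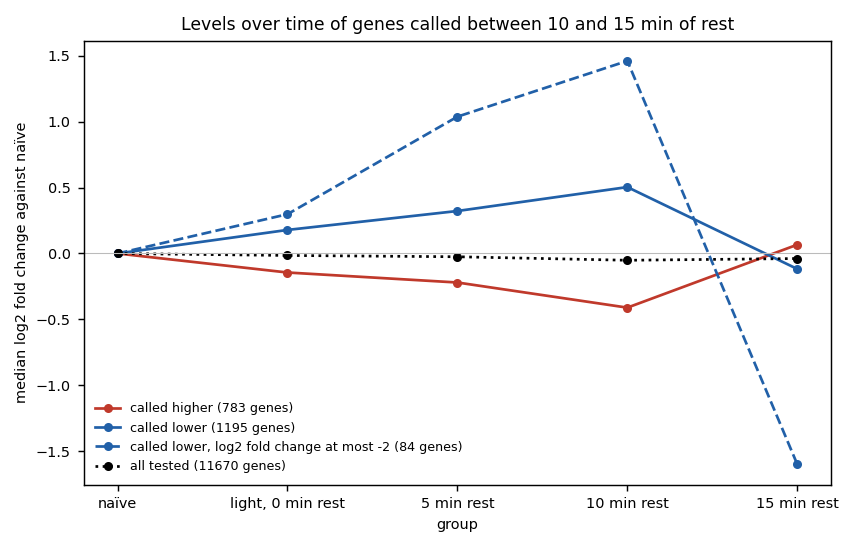
Median log2 fold change against naïve flies (y axis) in each group (x axis) for the 783 genes called higher and the 1195 called lower from 10 to 15 min of rest, the 84 that fell by at least 2 on the log2 scale, and all 11670 tested genes. The genes were chosen by the last step of these lines. The genes that fell by at least 2 go from 1.46 at 10 min to −1.60 at 15 min.

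Chromatin data of the same series, taken at the end of the light and therefore earlier than both groups, show which of the called genes carry binding sites. The deposited lists of sites hold 1237 sites of CoRest-C, a short form of the co-repressor CoRest, 6684 of the acetyltransferase CBP and 2717 of the deacetylase Rpd3. Per the study, the CoRest-C sites are those of a myc-tagged transgene expressed by another MB driver, *MBsw*, and pulled down by the tag. CBP and Rpd3 were pulled down with antibodies against the proteins themselves. A gene counted as having a site when a site overlapped its body or the 1 kb before its start. CBP sites were present at 792 of 1167 lower genes (67.9%, 95% Wilson interval 65.1% to 70.5%), 295 of 773 higher genes (38.2%, 34.8% to 41.6%) and 43.3% of all 11459 tested genes with a position. For CoRest-C, a site was found at 24.0% of the lower genes (21.6% to 26.5%), 7.76% of the higher genes (6.08% to 9.86%) and 13.2% of all. Rpd3 sites were present at 35.4% of the lower genes (32.7% to 38.2%), 26.5% of the higher genes (23.5% to 29.7%) and 34.2% of all. Sites of all 3 proteins were present at 17.7% of the lower genes, 3.88% of the higher genes and 8.71% of all. The strongest changes in both directions had low shares. Of the 84 genes that fell by at least 2, 22.6% had a CBP site, 3.57% a CoRest-C site and 0 sites of all 3. Of the 112 genes that rose by at least 1, 8.93% had a CBP site, 0.893% a CoRest-C site and 0 sites of all 3. The intervals cover counting error only. The share with a CBP site rose with level, from 18.5% in the lowest of 5 equal classes of tested genes to 74.7% in the highest. In that highest class, 82.8% of the 488 lower genes and 53.6% of the 235 higher genes had one. For CoRest-C the shares in the highest class were 33.4%, 9.79% and, over all its genes, 25.7%. For Rpd3 they were 49.4%, 31.1% and 52.4%. No test of enrichment was made.

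**Figure D5:**
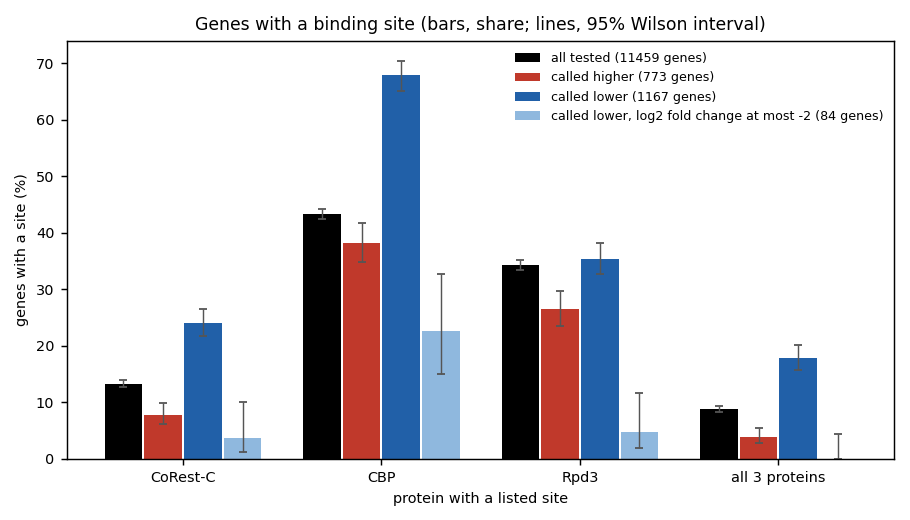
Percent of genes with a listed binding site over the gene body or 1 kb before it (bars, with 95% Wilson intervals as lines) for CoRest-C, CBP, Rpd3 and all 3, among all 11459 tested genes with a position, 773 higher genes, 1167 lower genes and 84 that fell by at least 2. The bars of lower genes stand above those of all tested genes for CoRest-C and CBP, and those of the strongest falls below them.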

How the data were processed

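MB nuclei were isolated from heads with an antibody against FLAG, and poly(A) RNA from them was sequenced in paired ends. The authors aligned adaptor-trimmed reads to dm6 using STAR, kept primary alignments with a mapping quality of at least 8, and deposited read counts on exons per gene from HTSeq-count, without normalization. The deposited binding sites are MACS peaks that overlapped in at least 2 of 3 illuminated replicates, with the −log10 p-value and the fold enrichment (a ratio) as the authors' caller gave them, and repeated entries were counted once. A deposited table of DESeq2 fold changes and p-values was not used. Aligner versions are not given in the sources used here.

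Counts were scaled by TMM and genes filtered by group with filterByExpr in edgeR 4.0.16 (R 4.3.3, limma 3.58.1). A quasi-likelihood model with a coefficient per group (5 groups) covered the 15 RNA-seq libraries, and Benjamini-Hochberg adjustment ran over 11670 genes. The totals above and a biological coefficient of variation of 13.4% between replicates set the precision. On simulated counts for this comparison (11670 genes), the test recovered 77 of 100 genes shifted by 1 on the log2 scale and 83 of 100 shifted by 2, with 13 false calls, and made 0 calls when nothing was shifted. DESeq2 1.42.0 was run as an alternative. Tables and figures used Python 3.11, pandas 2.3.3, scipy 1.17.1 and matplotlib 3.10.9. Gene names are those of the count table, and 17253 of 17559 IDs had a current symbol in RefSeq's gene tables.

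The text names the 12 largest rises and falls among called genes without overlap and with at least 5 CPM, the 6 most abundant in each direction, 9 further genes fixed by name, and up to 4 called members of each of 25 lists, 118 genes in all, with other genes named as chosen after their values were seen. The members and lists were chosen with earlier results of these data known. Groups came from the labels. The labels do not say that replicates came from separate cultures of flies, so that p-values measure the spread between these libraries.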

Additional observations from a re-analysis of the deposited data

How the results depend on the processing

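The 1978 calls (783 higher, 1195 lower) were recomputed with other tools, scalings, filters and thresholds. No called gene changed direction in any of them. The numbers of genes called, higher and lower were 2096, 783 and 1313 with DESeq2, 1973, 726 and 1247 with its size factors in edgeR, 2034, 958 and 1076 with library size alone, 2104, 1029 and 1075 with upper quartile scaling, 2057, 810 and 1247 without a filter, 1926, 673 and 1253 with 10 counts in every library, and 2543, 943 and 1600 in a fit of the 6 libraries alone. At an adjusted p under 0.01 there were 1171 calls (352 higher, 819 lower), and at an adjusted p under 0.05 with a fold change of at least 1.5 there were 814 (265 higher, 549 lower). With each library left out in turn, 1360 to 1700 genes were called, 465 to 644 higher and 895 to 1056 lower, and 438 to 648 of the calls were lost.

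Replicate numbers are shared between the groups, but same-numbered libraries did not deviate together (correlations of 0.0368, 0.00609 and −0.00465), and only replicate 1 at 15 min correlated best with its own number. With the replicate number as a block, 1888 genes were called, 728 higher and 1160 lower.

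Of 118 named genes under 7 or 8 other fits each, 11 calls were lost, 5 gained and 913 unaltered, and with 1 library left out 90 were lost, 4 gained and 614 unaltered. The stricter thresholds lost 77 of their calls. Over all settings, 195 counts of list members moved by over 1.5 times and 573 did not. Restricting sites to those above the median fold enrichment of their list lowered the shares of higher and lower genes with a site to 4.53% and 14.2% for CoRest-C, 17.9% and 47.3% for CBP, 14.5% and 18.0% for Rpd3, and 1.16% and 4.97% for all 3, where all tested genes were at 7.02%, 24.4%, 18.5% and 2.17%. A list of fewer sites gives lower shares by construction, and the share of lower genes with an Rpd3 site then lay under that of all tested genes instead of over it. With sites within 1 kb of a start site, the shares of the higher and lower genes stayed within their intervals. Those of all tested genes were then 12.2% for CoRest-C, 42.0% for CBP, 33.5% for Rpd3 and 8.12% for all 3. In the main count they were 13.2%, 43.3%, 34.2% and 8.71%. Genes with few counts, 24 of the strong rises at 0 counts at 10 min, are limited by depth.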

Other observations

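Some genes that moved strongly lie next to each other. Of the 84 genes that fell by at least 2 on the log2 scale, 29 (34.5%) lay within 10 kb of another one, in 11 runs. On chromosome 2L, *CG31904*, *Acp1*, *CG7214* and *CG7203* formed a run from 7734415 to 7753186, on 3L *CG13044*, *CR45890*, *CG13043* and *CG13063* a run from 16302490 to 16307205, and on 3R the Cecropin genes *CecA1*, *CecA2*, *CecB* and *CecC* a run from 30210874 to 30216938. Of the 112 genes that rose by at least 1, 35 (31.3%) had such a neighbour, for example the lipase genes *CG31872* and *CG18284* beside *CG17097*. No test of clustering was made, and the share of all tested genes with a tested neighbour was not counted, so that these shares have no background. Overlapping genes, such as *CR45890* with *CG13044* and *CR11538* with *Lsp2*, count as neighbours here. Related or overlapping neighbours can share reads.

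By chromosome arm, the 101 tested genes of chromosome 4 stood lowest, with a median log2 fold change of −0.13, 21.8% lower and 3.96% higher. The other arms had medians from 0.02 to 0.06, 9.03% to 10.8% lower and 5.66% to 8.55% higher. In 5 equal classes by summed exon length, the shortest genes (up to 976 bases) had a median of 0.09 with 5.76% lower, and the longest (from 3755 bases) a median of −0.04 with 16.8% lower. In 5 classes by mean level, 2.19% of the lowest and 21.2% of the highest were lower, and 3.04% and 9.98% were higher. The median was −0.02 in both of these classes. The part of length and level in each other's shares was not tested.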
